A study of Mus musculus with 6 samples.

Results

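The MHC class II genes described here are 7 genes taken by symbol from the 39179 rows of the deposited expression table: H2-Aa, H2-Ab1, H2-Eb1, H2-DMa, H2-DMb1, Cd74 and Ciita. All 7 were found, each in 1 row, and all 7 passed the filter on low values, a mean of at least 0.5 RPKM (reads scaled to gene length and sequencing depth) over the 6 libraries. The libraries measured total RNA from the mouse pylorus, where the stomach opens into the duodenum, with 2 groups of 3. Sox2 KO mice carried a tamoxifen-activated Cre recombinase, CreER, at the Rosa26 locus together with 2 floxed alleles of Sox2, the gene of a transcription factor found in stem and progenitor cells. The Sox2 WT controls had a wild-type Rosa26 locus and the same floxed alleles. Both groups received tamoxifen when they were 8 weeks old and their stomachs were taken 2 weeks later, and all were of a mixed C57BL/6 and 129 background. The Rosa26 locus drives CreER in most cell types, so deletion need not have been limited to the epithelium, and the muscle layer was peeled away before RNA was made from epithelium and mesenchyme together. Nothing in the labels ties each library to its own animal, so p-values measure the spread between libraries, which may be technical. By Xist the Sox2 WT libraries hold both sexes, so they did not all come from the same animal.

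MHC class II molecules carry peptides from endocytosed proteins to the surface of antigen-presenting cells, where CD4+ T cells read them. Each is a pair of an alpha and a beta chain. The invariant chain, made from Cd74, holds the groove closed on the way through the cell, and H2-DM then exchanges the last piece of that chain for a peptide. Dendritic cells and B cells make these genes all the time, and macrophages can make them too. Gastric and intestinal epithelial cells can be brought to make them by interferon gamma, through the transcriptional coactivator CIITA, the product of Ciita. CIITA does not bind DNA itself. It docks on factors that sit on the X and Y boxes of class II promoters.

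The X and Y boxes are shown first, as the sequences through which class II promoters are known to be read. Promoter sequences from RefSeq, build GRCm38.p6, running from 250 bases before to 50 after a transcript start, were held in the table for 4 of the 7 genes. The letters ATTGG, the core of the Y box and the inverted CCAAT motif, were searched on both strands, preceded on the same strand by GNAAC, part of the X box, with the first letters of the 2 motifs 28 to 38 bases apart. The distance was chosen after the sequences were seen. H2-Aa, H2-Eb1 and H2-DMb1 held the arrangement, and neither of the 2 promoters of H2-DMa did. Each stretch is given 5′ to 3′ on the strand of its gene, with GNAAC and ATTGG in capitals.
H2-Aa (chr17:34287847-34287924, minus strand): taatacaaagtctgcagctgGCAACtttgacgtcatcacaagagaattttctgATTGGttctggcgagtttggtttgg
H2-Eb1 (chr17:34305756-34305832, plus strand): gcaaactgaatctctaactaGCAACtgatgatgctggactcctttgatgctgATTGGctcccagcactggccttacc
H2-DMb1 (chr17:34153077-34153154, plus strand): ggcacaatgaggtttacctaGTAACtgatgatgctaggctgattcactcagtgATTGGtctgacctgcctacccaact
From the first letter of GNAAC to the first letter of ATTGG there were 33 bases in H2-Aa, 32 in H2-Eb1 and 33 in H2-DMb1. Of all 32851 promoters there, 1.82% held the arrangement, while 37.4% held ATTGG and 84.8% held GNAAC on either strand. Of 4 other class II genes with a promoter, H2-Eb2, H2-Oa and H2-Ob held it and H2-DMb2 did not. A match describes letters in a window and shows no binding.

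In the annotation (GENCODE mouse release 21, GRCm38, the same build as mm10) 5 of the 7 genes lie in the H2 complex of chromosome 17: H2-DMa from 34119541 to 34139101, H2-DMb1 from 34153072 to 34160230, H2-Ab1 from 34257689 to 34269419, H2-Aa from 34282744 to 34287823 and H2-Eb1 from 34305867 to 34316674. Ciita lies on chromosome 16, from 10480059 to 10528418, and Cd74 on chromosome 18. The sources used here do not say whether counting used strand. By whole span, H2-DMa overlaps Brd2 and 3 further annotated genes, Ciita overlaps Dexi, and H2-Eb1 overlaps a predicted gene on the opposite strand. Of these, CR974462.3 lies on the same strand as H2-DMa, and Mir5107 overlaps Cd74 on the same strand. Reads from a shared stretch might be counted for either gene. Whether the exons overlap was not examined. H2-DMb1 also has a near-identical neighbour, H2-DMb2. The H2-DMb1 stretch shown above lies inside the gene as annotated here, because the RefSeq transcript start used for its promoter is further downstream.

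By whole reads recovered from the deposited values, the libraries held between 22015344 and 32581740 reads in genes. Sox2 itself ran from 9.03 to 11.1 RPKM in Sox2 WT and only from 0.210 to 0.420 in Sox2 KO, with a log2 fold change of -3.72 (limma adjusted p = 2.9e-04). The added 0.5 understates that change, which was -4.65 with 0.1 added and -5.00 by limma's voom on the recovered reads. Xist and Y-linked genes put 2 of the libraries, Sox2 WT replicates 2 and 3, as female and the other 4 as male, so that sex and genotype cannot be fully told apart. Markers of the pyloric epithelium were high in every library: gastrin, Gast, at 2766 to 6383 RPKM and the transcription factor gene Pdx1 at 9.85 to 16.4 RPKM. None of the 8 genes of that list passed the test (median log2 fold change 0.16). The labels name no batch or sequencing date.

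Cd74 was the highest of the 7 genes. In replicates 1, 2 and 3 in turn, the order kept for every such series of values below, it was at 87.5, 74.4 and 126.6 RPKM across the Sox2 WT libraries and 108.9, 130.7 and 79.2 RPKM across the Sox2 KO libraries. The highest library was Sox2 KO replicate 2 and the lowest Sox2 WT replicate 2, with the other Sox2 KO and Sox2 WT values interleaved. The Sox2 WT mean was 96.2 ± 27.1 RPKM and the Sox2 KO mean 106.3 ± 25.9 RPKM (SD, n = 3 each), a log2 fold change of 0.15 (SE 0.248, limma adjusted p = 1.00). In each library these levels rest on 3242 to 5910 reads, so that the counting error of a single library was 1.30% to 1.76% and far below the spread between libraries. Log2 fold changes throughout are Sox2 KO minus Sox2 WT on log2(RPKM + 0.5), which understates the change of low genes such as Ciita.

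H2-Ab1 and H2-Aa encode the beta and alpha chains of I-A, the class II molecule that this mouse background makes at the cell surface. H2-Ab1 was at 31.0, 26.7 and 45.0 RPKM across the Sox2 WT libraries and 37.6, 45.1 and 29.7 RPKM across the Sox2 KO libraries. H2-Aa was at 28.2, 25.8 and 41.3 RPKM across the Sox2 WT libraries and 37.8, 42.7 and 25.9 RPKM across the Sox2 KO libraries. For both chains Sox2 WT replicate 3 and Sox2 KO replicate 2 were the highest libraries, Sox2 WT replicate 2 was the lowest, and the groups overlapped. H2-Ab1 had a log2 fold change of 0.14 (SE 0.225, limma adjusted p = 1.00) and H2-Aa of 0.16 (SE 0.236, limma adjusted p = 1.00).

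H2-Eb1 encodes the beta chain of I-E, the second class II molecule of mice. Its RNA was more abundant per length than that of either I-A chain, at 45.0, 38.8 and 68.1 RPKM across the Sox2 WT libraries and 54.4, 66.4 and 47.5 RPKM across the Sox2 KO libraries. The order of the libraries was close to that of I-A, with Sox2 WT replicates 3 and 2 as the extremes and the Sox2 KO libraries between them (log2 fold change 0.17, SE 0.225, limma adjusted p = 1.00). The gene of its partner, the I-E alpha chain, annotated as H2-Ea-ps, was listed at 0 in all 6 libraries. Mice of the H2-b haplotype, which both parental strains carry, have a deletion in the promoter of the I-E alpha gene and lack I-E at the cell surface. Per length, RNA of the I-E beta chain was thus above that of both I-A chains, with none listed for its partner. The recovered lengths behind RPKM were 1172 bases for H2-Eb1, 1631 for H2-Ab1 and 2126 for H2-Aa. In total reads over the 6 libraries H2-Aa was the highest of these genes, at 12128, with 10637 for H2-Eb1 and 9919 for H2-Ab1.

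H2-DMa and H2-DMb1 encode the chains of H2-DM, the peptide exchange factor of the endosome, and lay far below the I-A chains. H2-DMa was at 3.37, 2.59 and 3.79 RPKM across the Sox2 WT libraries and 3.61, 4.02 and 3.71 RPKM across the Sox2 KO libraries. H2-DMb1 was at 3.07, 3.20 and 4.85 RPKM across the Sox2 WT libraries and 3.76, 4.47 and 4.11 RPKM across the Sox2 KO libraries. The 3 Sox2 KO libraries lay close together for both genes and inside the Sox2 WT range, apart from Sox2 KO replicate 2 for H2-DMa, which was above it. H2-DMa had a log2 fold change of 0.20 (SE 0.145, limma adjusted p = 1.00), the highest of the 7, and H2-DMb1 of 0.16 (SE 0.175, limma adjusted p = 1.00). These values rest on 109 to 206 reads a library.

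Ciita, the coactivator gene, was the lowest of the 7 and the most variable. The Sox2 WT libraries had 0.633, 0.313 and 0.846 RPKM, from 80, 46 and 113 reads. The Sox2 KO libraries had 0.583, 0.821 and 0.242 RPKM, from 91, 125 and 43 reads. Sox2 WT replicate 2 and Sox2 KO replicate 3 were low and Sox2 WT replicate 3 and Sox2 KO replicate 2 high, so that each group spanned nearly the whole range. The exact Poisson 95% intervals, which cover counting error only, were 0.175 to 0.326 RPKM in Sox2 KO replicate 3 and 0.684 to 0.979 RPKM in Sox2 KO replicate 2, and did not meet. Between the genotypes its log2 fold change was -0.07 (SE of 0.272, limma adjusted p = 1.00). Ciita has several promoters used by different cell types, which a value per gene cannot separate.

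**Figure D1:**
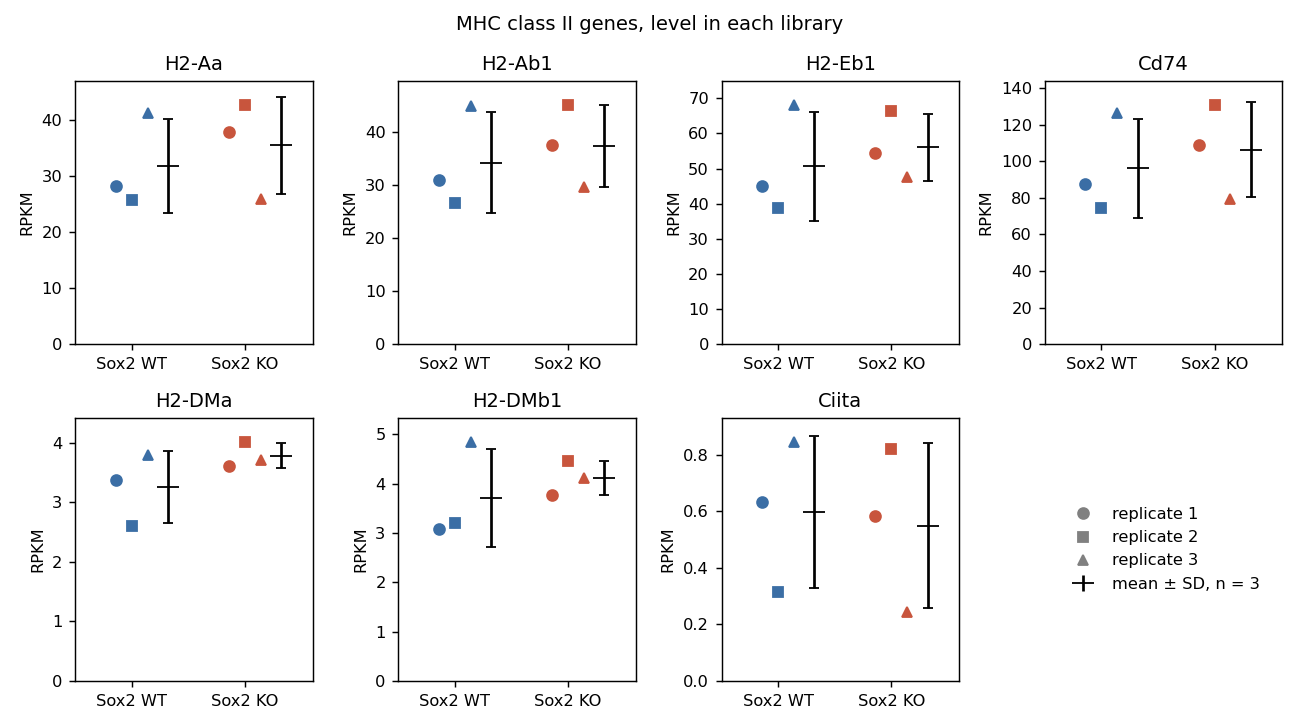
Level in RPKM of each of the 7 class II genes in the 3 Sox2 WT (blue) and 3 Sox2 KO (red) libraries, with the mean and SD of each group (n = 3) as a bar beside the points; each vertical axis starts at 0 and has its own scale. In all 7 panels the points of the groups overlap, and replicate 3 of Sox2 WT and replicate 2 of Sox2 KO are the highest of their group.

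Setting Sox2 KO beside Sox2 WT asks whether loss of Sox2 was accompanied by a different level of class II RNA. None of the 7 genes passed limma's test, none had an unadjusted p under 0.05, and none had groups that did not overlap. Over all 14045 genes tested 4 passed (0.0285%), 442 had an unadjusted p under 0.05, and 7.08% had 3 Sox2 KO values that did not overlap the 3 Sox2 WT values. Of the 7 log2 fold changes 6 were positive and 1 negative, with a median of 0.16 beside 0.02 over all genes tested, 56.8% of which were positive. The median of the 7 fell below that of all genes when Sox2 WT replicate 2 was left out (0.0054 beside 0.024) or Sox2 KO replicate 2 (0.010 beside 0.025). The genes share libraries and moved together, so the 6 positive values are not 6 independent measurements.

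The intervals show what size of difference these libraries could hold. The limma 95% interval of the fold of RPKM + 0.5 ran from 0.76 to 1.64 for H2-Aa and from 0.77 to 1.59 for H2-Ab1. It ran from 0.741 to 1.66 for Cd74 and from 0.783 to 1.63 for H2-Eb1. The narrowest was that of H2-DMa, 0.91 to 1.46, and that of Ciita was 0.611 to 1.48. A doubling or halving of RPKM lay outside the intervals of all genes but Ciita, whose interval held a halving of RPKM, since the added 0.5 is close to its level. With 3 libraries a side the exact permutation test, two-sided, cannot go below 0.1, and it gave p = 0.7 for H2-Aa, H2-Ab1, Cd74 and Ciita, p = 0.6 for H2-Eb1 and H2-DMb1 and p = 0.3 for H2-DMa.

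**Figure D2:**
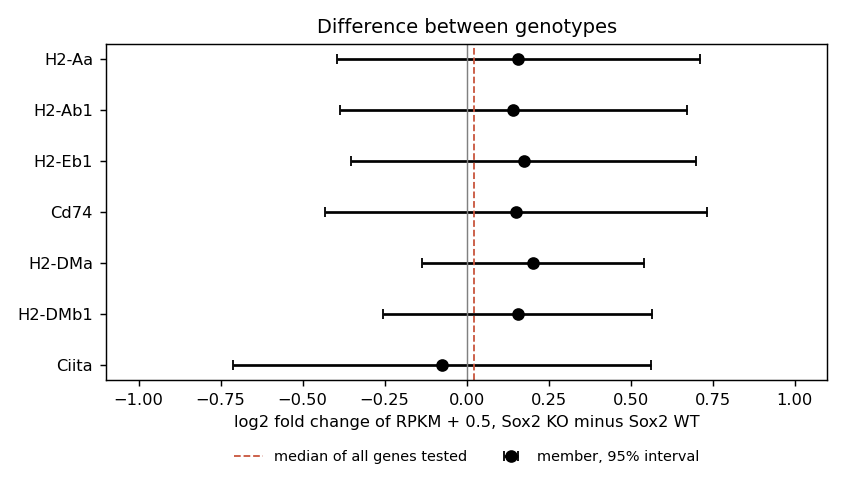
Log2 fold change, Sox2 KO minus Sox2 WT on log2(RPKM + 0.5), of each class II gene with its limma 95% interval (3 libraries a group); the dashed line is the median of all genes tested, 0.02. Every interval spans 0, and 6 of the 7 points lie to the right of it.

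Sex was unequal between the groups, and its part in these values was not tested apart from genotype. Among the Sox2 WT libraries the male one, replicate 1, lay between the 2 female ones for 6 of the 7 genes, and was the lowest for H2-DMb1. With sex as a covariate, which sets the Sox2 KO libraries against Sox2 WT replicate 1 alone, the log2 fold change was 0.30 for H2-Aa, 0.25 for H2-Ab1, 0.30 for H2-Eb1, 0.25 for Cd74, 0.14 for H2-DMa, 0.37 for H2-DMb1 and -0.15 for Ciita. None of these passed (limma adjusted p = 1.00 each).

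Per length, the order of the mean levels over the 6 libraries was Cd74, H2-Eb1, H2-Ab1, H2-Aa, H2-DMb1, H2-DMa and Ciita. Cd74 was above H2-Eb1 in all 6 libraries, at 1.89 ± 0.122 times its RPKM (SD, n = 6), and H2-Eb1 above H2-Ab1 in all 6, at 1.49 ± 0.0606 times. H2-Ab1 was 1.07 ± 0.0526 times as high as H2-Aa (SD, n = 6) and higher in 5 of 6 libraries, a small difference that exceeded the SD of the ratio but not the SD of either gene's level over libraries. H2-Aa was 8.61 ± 1.33 times as high as H2-DMb1 (SD, n = 6), in all 6 libraries. H2-DMb1 and H2-DMa, again the chains of 1 dimer, did not differ beyond the SD of their ratio, at 1.11 ± 0.133 (SD, n = 6) and higher in 5 of 6. H2-DMa was above Ciita in all 6 libraries, by 4.47 to 15.3 times.

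The levels of the antigen-presenting genes rose and fell together from library to library, and their proportions were far steadier than the levels themselves. Over the 6 libraries the coefficient of variation was 24.1% for Cd74, 23.4% for H2-Aa, 22.2% for H2-Ab1 and 22.2% for H2-Eb1. The ratio of Cd74 to H2-Ab1 had a coefficient of variation of only 2.99%, with a mean of 2.81 ± 0.0208 in Sox2 WT and 2.82 ± 0.131 in Sox2 KO (SD, n = 3 each). The ratio of H2-Eb1 to H2-Ab1 varied by 4.06% and that of H2-Aa to H2-Ab1 by 4.94%. Chains of I-A, the I-E beta chain and the invariant chain thus kept nearly fixed proportions in libraries whose class II levels differed by up to 1.76-fold.

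H2-DM and Ciita followed less closely. The coefficient of variation of the level was 14.2% for H2-DMa and 17.9% for H2-DMb1, lower than for the antigen-presenting chains. Their ratios to H2-Ab1 varied by 14.8% and 14.3%. The counting error of a single library was 6.97% to 9.58% for the H2-DM genes and 8.94% to 15.3% for Ciita. For Cd74 and the antigen-presenting chains it was at most 2.86%. The part of counting error in the looser following was not tested. In Sox2 KO replicate 3, where the chains and Cd74 were low, H2-DMb1 stood at 0.139 of H2-Ab1, against 0.0990 to 0.120 in the other 5 libraries. H2-DMa stood there at 0.125 of H2-Ab1, against 0.0842 to 0.109 in the others. Ciita had a coefficient of variation of 43.9%, and its ratio to H2-Ab1 ran from 0.00816 in Sox2 KO replicate 3 to 0.0204 in Sox2 WT replicate 1. For 7 such ratios compared between the genotypes the exact two-sided permutation p, which cannot go below 0.1 here, ran from 0.5 to 1 (Benjamini-Hochberg adjusted p = 1 for each).

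**Figure D3:**
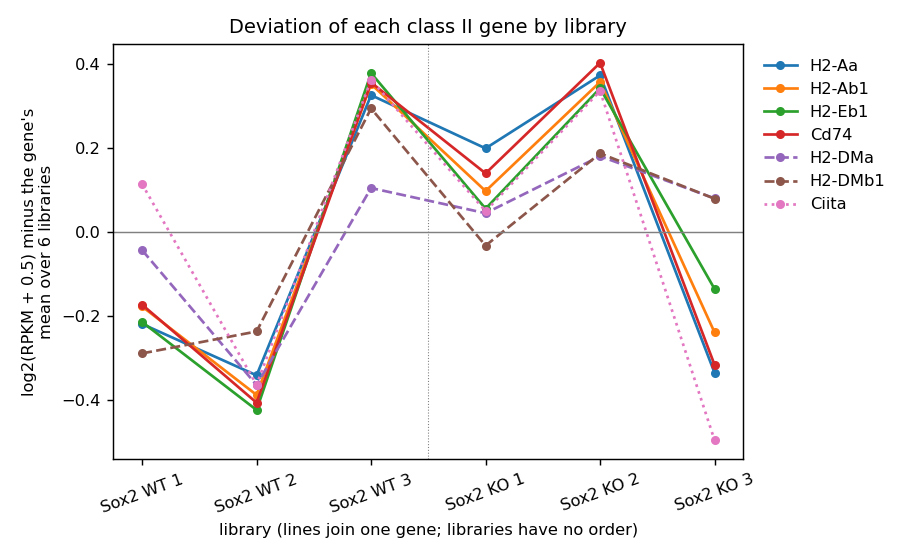
Deviation of each class II gene from its own mean over the 6 libraries, on log2(RPKM + 0.5), with Sox2 WT to the left of the dotted line and Sox2 KO to the right; lines join the values of 1 gene and imply no order of libraries. The solid lines of H2-Aa, H2-Ab1, H2-Eb1 and Cd74 run close together, while the dashed H2-DM lines lie above 0 and the dotted Ciita line lies lowest, at -0.50, in Sox2 KO replicate 3.

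The median deviation over the 7 genes was 0.35 in Sox2 WT replicate 3 and 0.34 in Sox2 KO replicate 2, where all 7 genes were above their own mean. It was 0.06 in Sox2 KO replicate 1, -0.18 in Sox2 WT replicate 1 and -0.24 in Sox2 KO replicate 3. In Sox2 WT replicate 2 it was -0.37, and all 7 genes were below their mean. The SD of this median deviation between libraries of 1 genotype, pooled over both genotypes, was 0.33. Between the genotypes the median log2 fold change, which compares means of 3 libraries, was 0.16.

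The other class II genes were scarce. H2-DMb2, the close copy of H2-DMb1, was at 0.189 to 0.707 RPKM, and H2-Oa and H2-Ob, the chains of the H2-O inhibitor of H2-DM, at 0.146 to 0.437 and 0.268 to 0.592 RPKM. H2-Eb2 was at 0 to 0.078 RPKM. With H2-Ea-ps, all 5 genes of this list were under the filter and were not tested. H2-O is known mainly from B cells, and B cell genes were near the floor of these libraries. All 10 genes of the B cell list were under the filter: Pax5, the transcription factor of the lineage, was listed at 0 in all 6 libraries, and Ms4a1, encoding CD20, was at 0.0336 RPKM or less. Summed over the list they came to 0.63 to 1.09 RPKM in Sox2 WT and 0.683 to 0.923 in Sox2 KO, beside 171.9 to 290.4 and 190.4 to 294.3 RPKM for the 7 class II genes.

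Markers of macrophages and dendritic cells were present. All 11 macrophage genes were tested and none passed, 6 with a positive and 5 with a negative log2 fold change (median 0.03). Their summed level was at 142.9, 104.1 and 179.7 RPKM across the Sox2 WT libraries and 168.3, 155.2 and 105.0 RPKM across the Sox2 KO libraries. Sox2 WT replicate 2 and Sox2 KO replicate 3 were thus lowest here as they were for the summed class II genes, and the same 3 libraries, Sox2 WT replicate 3 and Sox2 KO replicates 1 and 2, were highest. Lyz2, the lysozyme of macrophages, made up the greatest part of that sum, at 38.4 to 87.7 RPKM. The complement genes C1qb, at 17.9 to 28.2 RPKM, and C1qa, at 17.9 to 25.6 RPKM, followed. Only Lyz2, Cd68 and C1qa of the list were higher in Sox2 KO replicate 2 than in Sox2 WT replicate 1. The place of Sox2 KO replicate 2 among the highest 3 libraries rests on Lyz2, at 69.5 RPKM there and 53.6 RPKM in Sox2 WT replicate 1. The highest and lowest libraries were not particular to macrophages. Sox2 WT replicate 3 and Sox2 KO replicates 1 and 2 also had the highest sums of pyloric epithelium and leukocyte genes. The same held for the factors that bind the X and Y boxes and for class II handling in the endosome. Sox2 WT replicate 2 and Sox2 KO replicate 3 were also lowest for the B cell and leukocyte lists.

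Of the 12 dendritic cell genes 5 passed the filter and none passed the test, with a median log2 fold change of 0.20. Their sum over all 12 was 6.52 to 8.54 RPKM in Sox2 WT and 6.80 to 10.6 in Sox2 KO. Itgax, encoding CD11c, was at 1.02, 0.533 and 1.71 RPKM across the Sox2 WT libraries and 1.93, 1.12 and 0.955 RPKM across the Sox2 KO libraries. The lowest 2 libraries of this list were again Sox2 WT replicate 2 and Sox2 KO replicate 3, though its defining genes Flt3, Xcr1 and Clec9a were at 0.141 RPKM or less. Ptprc, which encodes the pan-leukocyte surface protein CD45, was at 0.831 to 1.68 RPKM, and 6 leukocyte genes had a median log2 fold change of 0.09 with none past the threshold. In bulk tissue fewer cells of a type and less RNA per cell cannot be told apart, and the part of these cells in the class II levels was not tested.

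Epithelial markers also differed between libraries. The summed level of 8 epithelial genes was at 5024, 4050 and 6959 RPKM across the Sox2 WT libraries and 5896, 5625 and 5798 RPKM across the Sox2 KO libraries. Sox2 WT replicates 2 and 3 were its extremes, as for H2-Eb1. The keratin genes Krt19, at 1504 to 2918 RPKM, and Krt8, at 1031 to 1946 RPKM, dominated that sum. The 8 log2 fold changes were positive, with a median of 0.17, and none passed. The lists of endothelium (6 tested), fibroblasts (6 tested), smooth muscle (6 tested) and T cells and innate lymphoid cells (4 tested of 11) had medians of 0.02, 0.03, -0.01 and -0.06, with no gene past the threshold. Smooth muscle genes remained well expressed after the muscle layer was peeled off, with Acta2 at 156.6 to 246.0 RPKM.

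Interferon gamma is the classical inducer of Ciita. Its own gene, Ifng, was listed at 0 in all 6 libraries, while both receptor genes were expressed, Ifngr1 at 54.4 to 74.8 RPKM and Ifngr2 at 26.5 to 36.5 RPKM. Of the 8 genes of the signalling list 7 were tested, 6 with a positive and 1 with a negative log2 fold change (median 0.13), and none passed. Their summed level was highest in Sox2 KO replicate 1, Sox2 WT replicate 3 and Sox2 KO replicate 2, the same 3 libraries as for the summed class II genes, and lowest in Sox2 KO replicate 3 and Sox2 WT replicate 2, again as there. Socs1, the feedback inhibitor of the pathway, was at 0.578, 0.410 and 0.386 RPKM across the Sox2 WT libraries and 1.32, 0.678 and 0.678 RPKM across the Sox2 KO libraries. Its groups did not overlap, as in 7.08% of all genes tested, and its log2 fold change was 0.51 (SE 0.210, limma unadjusted p = 0.0430, limma adjusted p = 1.00).

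GTPases and chemokines that interferon gamma induces had a different order of libraries from the class II genes. Of 13 genes 8 were tested, all with positive log2 fold changes and a median of 0.33, and none passed. By limma 3 of the 8 had an unadjusted p under 0.05, beside 442 of all 14045 genes tested. The groups did not overlap for Gbp3, Gbp4 and Irgm2, beside 7.08% of all genes tested. For Gbp4 they nearly met, at 0.593 RPKM in Sox2 KO replicate 1 and 0.583 in Sox2 WT replicate 2. The summed level was at 17.3, 14.7 and 15.3 RPKM across the Sox2 WT libraries and 17.5, 22.1 and 24.1 RPKM across the Sox2 KO libraries. Sox2 KO replicate 3 was thus the highest library for this list and the second lowest for the class II genes. Irgm2 was at 2.68, 2.45 and 2.54 RPKM across the Sox2 WT libraries and 3.02, 4.11 and 3.88 RPKM across the Sox2 KO libraries (log2 fold change 0.44, SE 0.135, limma adjusted p = 1.00). Igtp had the largest log2 fold change of the list, 0.67 (SE 0.276, limma adjusted p = 1.00), though its groups overlapped.

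**Figure D4:**
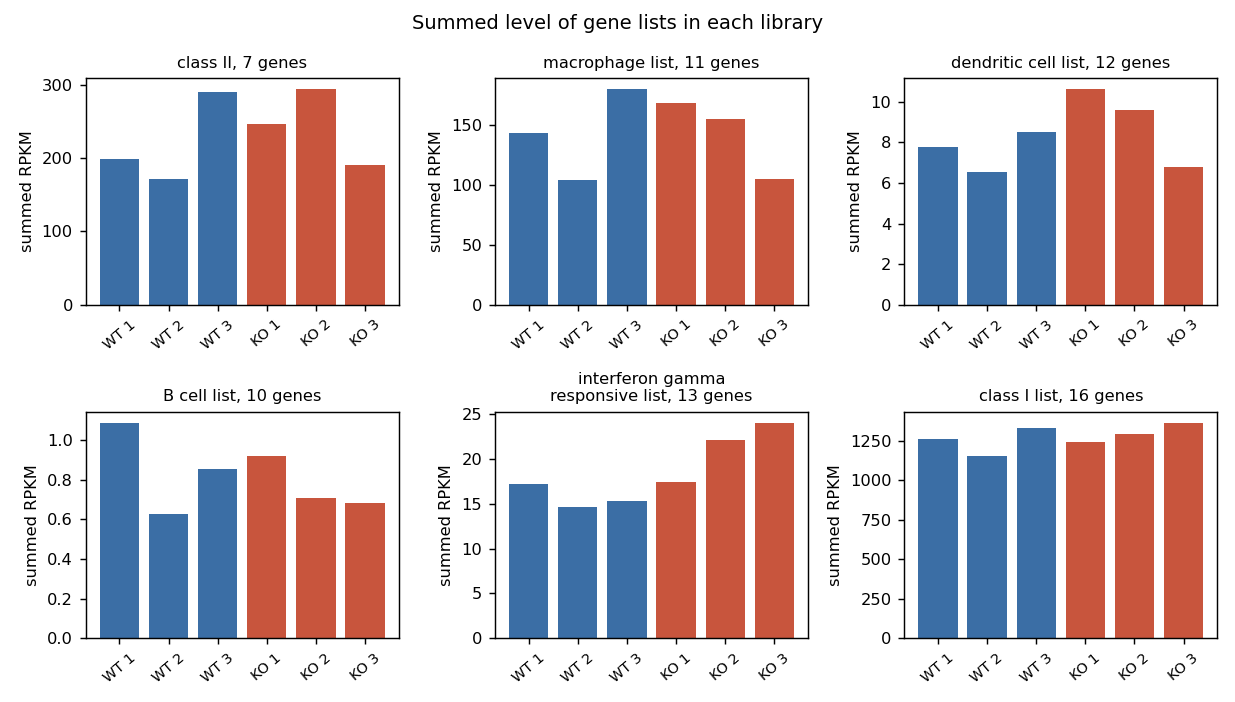
Summed RPKM of 6 gene lists in each library, Sox2 WT in blue and Sox2 KO in red, each panel with its own vertical axis from 0. The class II, macrophage, dendritic cell and B cell panels have their 2 lowest bars in Sox2 WT replicate 2 and Sox2 KO replicate 3. The interferon gamma responsive panel has its highest bar, 24.1 RPKM, in Sox2 KO replicate 3.

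The factors that bind the X and Y boxes, which are the RFX subunits, the NF-Y subunits and CREB1, were expressed in every library. All 7 genes were tested, 4 had a positive and 3 a negative log2 fold change, the median was 0.02 and none passed. Rfxank was at 11.4 to 17.7 RPKM, Nfyb at 6.53 to 7.87 RPKM and Creb1 at 6.11 to 7.89 RPKM. These genes, at 2.55 RPKM or more in every library, were above Ciita in each of them.

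Genes for the handling of class II in the endosome were among the more abundant. Ifi30, the lysosomal thiol reductase that unfolds antigens, was at 275.6, 278.1 and 289.6 RPKM across the Sox2 WT libraries and 320.8, 314.1 and 341.8 RPKM across the Sox2 KO libraries. The groups did not overlap, as in 7.08% of all genes tested, and the difference did not pass (log2 fold change 0.21, SE 0.123, limma adjusted p = 1.00). Ctsd, a lysosomal aspartyl protease, was likewise without overlap, at 184.2 to 216.8 RPKM in Sox2 WT and 217.7 to 257.0 in Sox2 KO (log2 fold change 0.22, SE 0.133, limma adjusted p = 1.00). Ctsb, a lysosomal cysteine protease, overlapped between the groups, at 172.7 to 258.8 RPKM over the 6 libraries. Ctss, the protease that trims the invariant chain, was at 13.6 to 21.7 RPKM. Of 10 genes 9 were tested, all 9 above 0 in log2 fold change (median 0.10), and none passed. March1, encoding a ubiquitin ligase that removes class II from the surface, was at 0.218 to 0.323 RPKM and not tested, and its relative March8 was at 19.0 to 21.6 RPKM.

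Class I antigen presentation, the parallel pathway for peptides from the cytosol, was compared as the nearest relative. Of its 16 genes 15 were tested, 9 with a positive and 6 with a negative log2 fold change (median 0.05), and none passed. H2-K1, a class I heavy chain gene, was at 167.2 to 228.4 RPKM in Sox2 WT and 206.8 to 218.1 in Sox2 KO (log2 fold change 0.14, SE 0.148, limma adjusted p = 1.00). Psme2, a subunit of the interferon-induced proteasome activator, was at 3.99 to 4.88 RPKM in Sox2 WT and 5.27 to 6.15 in Sox2 KO. Its groups did not overlap, as in 7.08% of all genes tested (log2 fold change 0.35, SE 0.120, limma unadjusted p = 0.0222, limma adjusted p = 1.00). Summed over the list, Sox2 KO replicate 3 was the highest library, at 1363 RPKM, and Sox2 WT replicate 2 the lowest, at 1152 RPKM. Of 7 costimulatory genes 3 were tested (median 0.22) and none passed, with Icosl, the ligand of ICOS on T cells, at 10.9 to 17.7 RPKM and Cd80 and Cd86, the ligands of CD28, at 0.608 RPKM or less.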

How the data were processed

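The deposited files hold RPKM computed by the authors. Per the submitters' processing notes CASAVA 1.7, STAR and the build mm10 were used; the sources used here name no counting tool, annotation or filter. The 6 single-library tables equal the columns of the series table. Whole reads were recovered by finding a length for each gene and a denominator for each library (100.0% of 23538 genes above 0, tolerance 1e-05 reads); each length was searched for, so reads could be too low where all 6 share a factor. The denominators were 91.4% to 109.7% of the recovered reads and within 1.95% of reads scaled by median-of-ratios factors, a step that the labels do not give. Log2(RPKM + 0.5) was tested with the R package limma (3.58.1, under R 4.3.3), using its variance trend and Benjamini-Hochberg adjustment at 0.05, over the 14045 genes whose mean RPKM reached 0.5 (the highest row per symbol); the script was tested on simulated data. Gene coordinates come from GENCODE. The members and the 17 other lists were chosen with earlier results of these data known. The rule for named genes takes from each list the members past the threshold or, with none, the 3 with the highest mean and the 1 with the largest change, of which the text gives those it turns on; genes with the most alike pattern were taken by Pearson r with the members' median, the 8 highest of 936 with a mean RPKM of at least 1 and a log2 range of at least 1, after predicted genes and receptor segments were removed from 1239. Further genes were chosen after their values were seen.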

Additional observations from a re-analysis of the deposited data

How the results depend on the processing

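No class II gene passed the threshold under any of the 17 alternatives (pseudocounts, filters, rescaling, variance trend, replicate block, each library left out, sex as a covariate, male libraries alone, and limma's voom on recovered reads), and the lowest unadjusted p, 0.0394, was that of H2-DMb1. The median log2 fold change of the members ran from 0.0054 to 0.35, both with 1 library left out. With 1 library left out the log2 fold change of Cd74 ran from -0.0162 (without Sox2 WT replicate 2) to 0.37 and that of H2-Ab1 from -0.0156 (the same library) to 0.35; leaving out Sox2 KO replicate 2 gave -0.014 for Cd74. Ciita ran from -0.28 to 0.16 (without Sox2 KO replicate 3) and was 0.09 without Sox2 WT replicate 3. The cause was not tested. The count of all genes past the threshold, 4, was 1 with the replicate block or with sex as a covariate, 0 in the male libraries alone (581 at an unadjusted p under 0.05) and 8 with voom, and ran from 1 to 8 with 1 library left out. Same-numbered libraries did not pair (correlations of deviations 0.0088, 0.097 and -0.074), and the block changed no call of a class II gene. Among male libraries alone Sox2 did not pass (log2 fold change -3.82, limma adjusted p = 0.158); the lone Sox2 WT library is there assumed to vary like the others. Ciita was under the filter of a mean RPKM of at least 1. Its 43 to 125 reads a library gave a counting error of 8.94% to 15.3%, the largest of the 7.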

Other observations

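Among genes outside the class II set with a mean of at least 1 RPKM and a range of at least 1 on the log2 scale, 8 had the highest Pearson correlation over the 6 libraries with the median of its 7 members. Genes of smaller range, such as Ctss, were not compared, and the 7 class II genes themselves all have a smaller range on log2(RPKM + 0.5). The values of r describe a choice of the highest among 936 genes, left of 1239 after predicted genes and receptor segments were removed, and were not tested. Apol9a came first (r = 0.965), at 2.19, 1.02 and 5.79 RPKM across the Sox2 WT libraries and 3.87, 4.95 and 1.15 RPKM across the Sox2 KO libraries (replicates 1, 2 and 3 in turn). It was followed by the keratin gene Krt79 (r = 0.945), the protease inhibitor gene Serpinb1a (r = 0.939), Anks4b, a scaffold of the brush border (r = 0.921), the interferon-induced gene Mx1 (r = 0.917), Mettl7b (r = 0.916), the galectin gene Lgals3 (r = 0.912) and the cholesterol transporter gene Npc1l1 (r = 0.911). Within the class II set r with the same median, which each member enters, was 0.998 for H2-Ab1, 0.991 for Cd74, 0.984 for H2-Eb1, 0.972 for H2-Aa, 0.874 for Ciita, 0.805 for H2-DMb1 and 0.755 for H2-DMa. None of the 8 genes passed the threshold between the genotypes (limma adjusted p = 1.00 each). Their log2 fold changes ran from -0.01 for Mettl7b to 0.33 for Mx1. Lgals3, the most abundant of them, was at 55.3 to 165.9 RPKM.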
